A study of Homo sapiens with 2 samples.

Results

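Of the 10 ligand-sensing receptor genes considered here, 8 could be followed in HepG2 cells exposed to amorphous silica nanoparticles, and none of the 8 differed by as much as 1.2-fold between the SiO2-NP and the control array. Of all genes at or above the median brightness, 10.5% were that far apart, and of the dimmer genes 18.9%. With so few receptors, 0 of 8 is not a result about them. The 10 genes were listed by name, with earlier results of these data known. They are the liver X receptors NR1H2 and NR1H3, the pregnane X receptor NR1I2, the constitutive androstane receptor NR1I3, the peroxisome proliferator-activated receptors PPARA, PPARD and PPARG, the retinoid X receptors RXRA and RXRB, and the aryl hydrocarbon receptor AHR. They were looked up among 18417 genes whose probes carry exactly 1 gene symbol. NR1H2 and NR1I2 had no such probe and are not analysed here. AHR is grouped with the nuclear receptors because it also senses ligands, but it belongs to a different family, the basic helix-loop-helix PAS factors.

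HepG2 is a human hepatoma line. 1 array held RNA of HepG2 cells given 100 mg/L of amorphous SiO2-NP in MEM medium for 24 h, and 1 array held RNA of control HepG2 cells, with 300 ng of total RNA labelled for each. The labels name no particle size, vehicle or replicate culture, and the 2 arrays share the cell line and its culture medium. A single array per group leaves the spread between cultures unmeasured, so the values are given without tests or errors and each difference describes these 2 arrays only. In RNA from a whole culture, fewer cells that make a transcript and less transcript per cell cannot be told apart.

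As background, nuclear receptors are transcription factors that small fat-soluble molecules switch on. LXRs respond to oxysterols and drive cholesterol efflux and lipogenic genes, PPARs respond to fatty acids, and PXR and CAR respond to drugs and bile acids and drive detoxification enzymes in the liver. All of these bind DNA as a pair with an RXR, at repeats of a short half-site. AHR waits in the cytosol with chaperones, and once it binds planar aromatic ligands it pairs with ARNT in the nucleus and switches on CYP1 enzymes.

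The DNA just upstream of the PPAR genes, of NR1H3 and of CYP1A1 is shown, and each of these windows holds a motif marked below. The windows of NR1I3, RXRA, RXRB, AHR and SREBF1 were searched too. They held neither motif and are not printed. Each window is the 250 bases before the most upstream RefSeq start of the gene (GRCh38.p14), printed 5′ to 3′ on the gene's strand. Capitals mark the half-site AGGTCA (reverse TGACCT) and the AHR core GCGTG (reverse CACGC), searched on both strands. Both motifs can share letters where the end of GCGTG meets the start of TGACCT, and no other motif was searched.
PPARG, chr3:12287118-12287367, plus strand: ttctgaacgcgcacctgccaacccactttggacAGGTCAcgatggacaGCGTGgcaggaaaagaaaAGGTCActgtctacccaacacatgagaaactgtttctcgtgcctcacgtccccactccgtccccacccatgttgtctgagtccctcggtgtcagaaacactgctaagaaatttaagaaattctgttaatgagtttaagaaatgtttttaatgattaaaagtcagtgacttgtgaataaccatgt
PPARA, chr22:46150276-46150525, plus strand: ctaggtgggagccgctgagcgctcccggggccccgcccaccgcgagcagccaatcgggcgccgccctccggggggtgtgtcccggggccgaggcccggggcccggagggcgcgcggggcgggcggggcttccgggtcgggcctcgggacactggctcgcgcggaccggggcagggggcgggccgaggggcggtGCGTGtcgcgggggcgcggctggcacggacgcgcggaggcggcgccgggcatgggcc
PPARD, chr6:35342308-35342557, plus strand: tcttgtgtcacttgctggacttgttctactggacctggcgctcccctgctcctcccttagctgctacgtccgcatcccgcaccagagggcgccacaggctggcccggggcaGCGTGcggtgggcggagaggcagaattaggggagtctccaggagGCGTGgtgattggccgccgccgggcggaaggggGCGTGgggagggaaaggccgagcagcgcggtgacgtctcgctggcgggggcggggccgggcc
NR1H3, chr11:47248050-47248299, plus strand: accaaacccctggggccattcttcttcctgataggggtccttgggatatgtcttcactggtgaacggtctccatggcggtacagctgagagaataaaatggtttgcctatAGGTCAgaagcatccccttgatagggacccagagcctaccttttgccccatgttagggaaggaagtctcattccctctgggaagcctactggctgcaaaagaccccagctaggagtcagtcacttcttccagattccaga
CYP1A1, chr15:74725529-74725778, minus strand: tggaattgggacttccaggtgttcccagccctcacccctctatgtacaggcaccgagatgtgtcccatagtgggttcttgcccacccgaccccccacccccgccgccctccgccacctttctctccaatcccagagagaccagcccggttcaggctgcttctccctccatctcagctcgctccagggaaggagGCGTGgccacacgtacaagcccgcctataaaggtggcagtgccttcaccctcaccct
Over the most upstream windows of 27305 genes, 12.2% held AGGTCA and 31.9% held GCGTG. Among the 8 measured receptors, 2 held the half-site, PPARG with 2 copies and NR1H3 with 1, and 3 held the AHR core, namely PPARG, PPARD and PPARA. Among AHR targets with a window, 5 of 8 held the AHR core and 0 held the half-site. The half-site was in 2 of 19 PPARα targets, 1 of 13 LXR targets and 4 of 16 PXR and CAR targets. In the same 3 lists the AHR core was in 7 of 19, 3 of 13 and 1 of 16. A match is a run of letters and not a binding site, and the arrays do not measure binding.

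The PPAR genes were all slightly higher on the SiO2-NP array. PPARG, best known as the regulator of fat cell formation, had a log2 intensity of 8.79 on the SiO2-NP array and 8.61 on the control array, a difference of 0.18 or 1.13-fold. PPARD, a PPAR found in most tissues, had 8.19 on the SiO2-NP array and 8.08 on the control array, a difference of 0.11. PPARA, the fasting-response receptor of the liver, had 8.76 on the SiO2-NP array and 8.69 on the control array, a difference of 0.07. The order PPARG, PPARD, PPARA is that of their differences, and gaps this small cannot be ranked without replicates. PPARG lay above 92.7% of the expressed genes in its difference, PPARD above 84.6% and PPARA above 76.3%.

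The RXR partners lay close to the control. RXRA, the main RXR of liver, had a log2 intensity of 9.12 on the SiO2-NP array and 9.15 on the control array, a difference of -0.04. Its difference stood near the middle of the expressed genes, above 48.2% of them. RXRB was read by 3 probes with nearly the same annotated transcripts, so they are not independent readings. They gave 8.71, 8.72 and 8.70 on the SiO2-NP array, against 8.66, 8.66 and 8.66 on the control array. All 3 were higher after SiO2-NP, by 0.05, 0.07 and 0.05, and their average difference was 0.06.

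AHR had a log2 intensity of 10.62 on the SiO2-NP array and 10.56 on the control array, a difference of 0.06 or 1.04-fold. That lay above 75.1% of the expressed genes. The receptors NR1H3 and NR1I3 were dimmer. NR1H3, the LXR enriched in liver, had 7.18 on the SiO2-NP array and 7.24 on the control array, a difference of -0.06. Its mean fell 0.05 short of the level filter, which is the median of all gene means, a log2 intensity of 7.26. NR1I3 had 5.94 on the SiO2-NP array and 5.76 on the control array, a difference of 0.18. It lay 1.41 under the filter, where the median difference of all genes was 0.07. The filter is a level and not a detection call, so a dim value may be a low transcript or background.

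**Figure D1:**
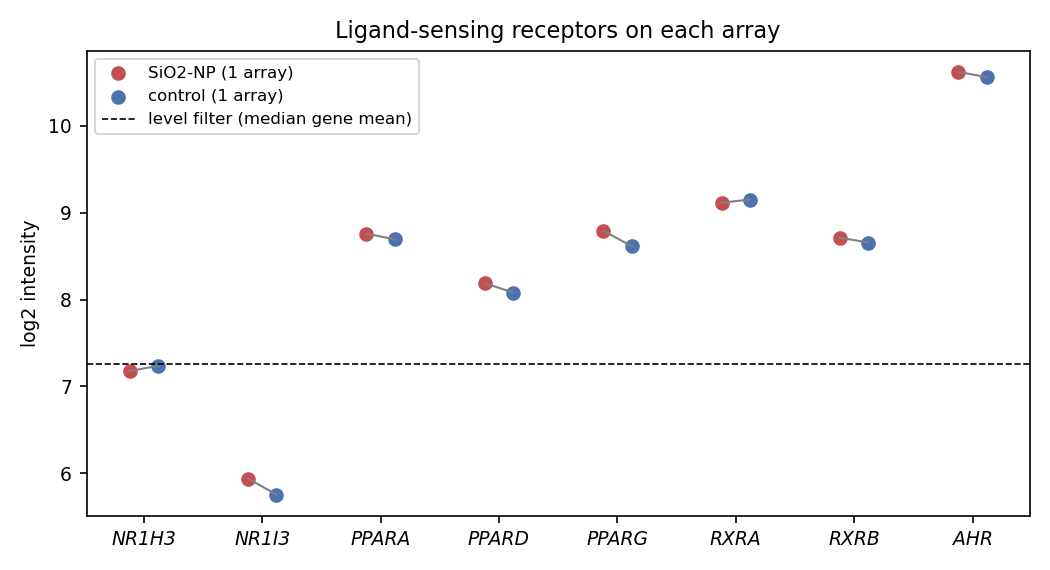
Log2 intensity of the 8 measured receptors, with the SiO2-NP array at the left of each pair and the control array at the right; each point is 1 array and there are no error bars. PPARG and NR1I3 show the widest steps, 0.18 each, and the dashed line is the level filter at 7.26; heights of different genes come from different probes and are not comparable.

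Against all genes, the receptors were within the ordinary scatter between the 2 arrays. Of the 9209 genes above the filter, 0.391% were at least 1.5-fold apart (0.141% higher and 0.25% lower on the SiO2-NP array) and 10.5% were at least 1.2-fold apart (2.99% higher and 7.53% lower). Among the 6 receptors above the filter the count was 0 at both folds, which with so few genes and so low a background is not a result about the receptors. Among genes under the filter, 1.01% were past 1.5-fold and 18.9% past 1.2-fold, against 0 of the other two receptors. A window of the 2.72% of genes nearest in level to each receptor gives the scatter at its own brightness. For PPARG the central 95% of those genes ran from -0.35 to 0.27, for AHR from -0.31 to 0.25, and for NR1I3 from -0.35 to 0.44. All 8 measured receptors lay inside their own range.

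In sign, 6 of the 8 measured receptors were above the control, and 5 of the 6 above the filter. The expressed genes were above the control in 40.2% of cases, and genes under the filter in 64.3%. The median difference of the 8 receptors was 0.06, beside -0.03 over all expressed genes. Sizes of this order moved with the scaling. RXRA, the receptor nearest 0, became positive after a running-median correction by level (0.0032) and after quantile normalization (0.015), and 7 of 8 receptors then lay above the control, beside 49.8% and 53.5% of expressed genes. The direction of the other 7 receptors was kept under the 5 alternatives run for them.

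**Figure D2:**
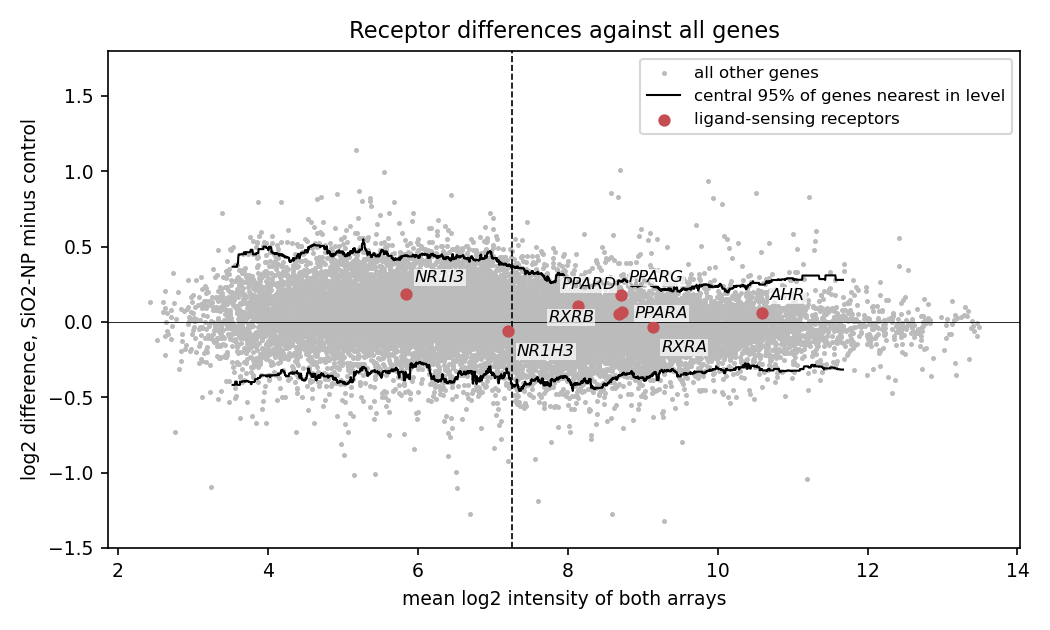
Log2 difference, SiO2-NP minus control (vertical axis), against the mean log2 intensity of both arrays (horizontal axis) for 18417 genes; red points are the 8 receptors, black lines enclose the central 95% of the genes nearest in level (a running window of 2.72% of all genes), and the dashed line is the level filter. Each receptor lies between the black lines, and 1 gene lies outside the axis.

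Other nuclear receptors above the filter differed from the control in both directions. Of 39 listed, 32 were measured and 17 lay above the filter. Of the 17, 8 were above and 9 below the control, beside 40.2% of expressed genes above it. Their median difference was -0.01, which became 0.03 under the running-median correction and 0.04 after quantile normalization. NR3C1, the glucocorticoid receptor, had 8.41 on the SiO2-NP array and 8.69 on the control array (-0.27). It was the single one of these 17 past 1.2-fold, beside 10.5% of expressed genes, so this count is not a result about them. HNF4G and the orphan receptor NR2C1 differed by -0.24 and -0.22, while the immediate-early receptor NR4A1 differed by 0.24. NR0B2, the small heterodimer partner that represses bile acid synthesis, had 11.23 on the SiO2-NP array and 11.05 on the control array (0.18). RXRG, the RXR of muscle and brain, was dim, with 4.85 on the SiO2-NP array and 4.56 on the control array. Under the filter were 15 of these receptors, and with them the median was 0.10.

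Cofactors above the filter differed in both directions. Of 9 nuclear receptor coactivators above the filter, 6 were above the control, beside 40.2% of expressed genes, with a median of 0.02. None of the 9 passed 1.2-fold, which beside 10.5% of expressed genes is not a result about so few. After the running-median correction 7 of the 9 were above the control (beside 49.8%), with a median of 0.06. After quantile normalization 8 were (beside 53.5%), with a median of 0.07. NCOA6 had the largest difference (0.24), followed by NCOA1 (0.10), the methyltransferase CARM1 (-0.10) and the acetyltransferase CREBBP (0.09). PPARGC1A, the coactivator of PPAR and energy metabolism genes, had 9.33 on the SiO2-NP array and 9.31 on the control array. Of 6 corepressors above the filter, 3 were above the control and 3 below it, with a median of -0.0030 that became 0.05 under each of these rescalings. GPS2 differed by 0.21, NRIP1 by -0.15, TBL1X by 0.08 and the deacetylase HDAC3 by -0.08.

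AHR partners and AHR targets differed in both directions. ARNT, the DNA-binding partner of AHR, had 9.31 on the SiO2-NP array and 9.24 on the control array (0.07). PTGES3, the p23 co-chaperone of the cytosolic AHR complex, had 10.87 on the SiO2-NP array and 11.15 on the control array, or 1.21-fold lower. The chaperones HSP90AA1 and HSP90AB1 differed by -0.09 and 0.02, and the median over the 4 partners above the filter was -0.03, or 0.0036 after quantile normalization. CYP1A1, the classical AHR target, had 7.26 on the SiO2-NP array and 7.24 on the control array (0.02), at a mean just under the filter. The other CYP1 enzymes were dimmer, and they were named outside the rule for choosing genes. CYP1A2 had 6.46 on the SiO2-NP array and 6.71 on the control array (-0.25), and CYP1B1 had 5.14 on the SiO2-NP array and 4.92 on the control array (0.22). Each lay inside the range of genes at its own level. The 3 AHR targets above the filter were all below the control, with a median of -0.03. Expressed genes were above the control in 40.2% of cases, so 3 of 3 is not a result about so few. After the running-median correction or quantile normalization 2 of the 3 were above it, beside 49.8% and 53.5% of expressed genes. The 3 were NFE2L2 (-0.14), the ADP-ribosyltransferase TIPARP (-0.03) and the quinone reductase NQO1 (-0.02).

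Targets of PXR and CAR were mostly near the control, with a median of -0.05 over the 9 above the filter. Of the 9, 3 were above the control, beside 40.2% of expressed genes. After quantile normalization 5 were, beside 53.5%, and the median was 0.00079. SULT2A1, a steroid and bile acid sulfotransferase, had 10.62 on the SiO2-NP array and 10.96 on the control array, or 1.27-fold lower. It was the single one of the 9 past 1.2-fold, beside 10.5% of expressed genes, so this count is not a result about the 9. The haem synthesis enzyme ALAS1 differed by 0.15, the drug exporter ABCB1 by 0.11 and CYP3A5 by -0.11. CYP3A4, the main drug-metabolising enzyme under PXR, was dim, with 5.86 on the SiO2-NP array and 5.93 on the control array. CYP2B6, the classical CAR target, had 4.83 on the SiO2-NP array and 4.32 on the control array (0.51), well under the filter. GSTA2, a glutathione transferase singled out after its value was seen, had 6.74 on the SiO2-NP array and 7.67 on the control array. It was 1.90-fold lower at a mean just under the filter, with its control value above the filter. It was the only one of 137 measured companion genes past 1.5-fold. Beside it, 0.391% of expressed genes and 1.01% of genes under the filter were past 1.5-fold. The 137 include NR1H3, which is listed among the LXR targets as well.

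Targets of LXR differed in both directions. Of 11 above the filter, 6 were above the control (beside 40.2% of expressed genes), with a median of 0.03. After the running-median correction 8 of the 11 were above it (beside 49.8%), with a median of 0.07. After quantile normalization 8 were (beside 53.5%), with a median of 0.08. SREBF1, the LXR-induced and sterol-controlled activator of fatty acid synthesis, had 8.35 on the SiO2-NP array and 8.07 on the control array, 1.22-fold higher. ABCA1, the cholesterol exporter, had 9.27 on the SiO2-NP array and 9.44 on the control array (-0.17). The sterol exporter ABCG8 differed by -0.15 and SMPDL3A by -0.17. Under the filter, the exporter ABCG1 differed by 0.12 and MYLIP, which degrades the LDL receptor, by 0.03.

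Targets of PPARα differed in both directions too. Of the 15 genes above the filter, 6 were higher than the control, beside 40.2% of expressed genes, and the median was -0.03. ACSL1, which activates long-chain fatty acids, had 9.89 on the SiO2-NP array and 9.60 on the control array, 1.22-fold higher. The lipid droplet protein PLIN2 differed by 0.21 and CPT1A, an enzyme of fatty acid entry into mitochondria, by 0.18. ACADM, a dehydrogenase of fatty acid oxidation, differed by -0.15. PDK4 (0.10) and the lipase inhibitor ANGPTL4 (-0.11) lay under the filter. Adipocyte targets of PPARγ were mainly dim, with 3 of 11 above the filter and a median of 0.04 over AQP7 (0.07), PCK1 (0.04) and CIDEC (-0.02).

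Genes that make or clear receptor ligands were below the control in all 4 cases above the filter, with a median of -0.10. Expressed genes were above the control in 40.2% of cases, so 4 of 4 is not a result about so few. After the running-median correction or quantile normalization 1 of the 4 was above it, beside 49.8% and 53.5% of expressed genes. A further 11 were under the filter, and over all 15 measured genes 7 were above the control and the median was -0.0033. Among the dim ones, CH25H, which makes an oxysterol, differed by -0.41 and ALDH1A2, which makes retinoic acid, by 0.38; both were named after their values were seen. CYP7A1, which starts the conversion of cholesterol to bile acids, had 7.68 on the SiO2-NP array and 8.06 on the control array, or 1.31-fold lower. ALDH1A1, which makes retinoic acid, differed by -0.12, KYNU by -0.08 and CYP27A1, which makes an oxysterol, by -0.0033. Over the 80 companion genes above the filter, 6 were past 1.2-fold (7.50%, beside 10.5% of expressed genes) and 0 past 1.5-fold (beside 0.391%). The 6 were SREBF1 and ACSL1, which were higher, and NR3C1, PTGES3, SULT2A1 and CYP7A1, which were lower.

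**Figure D3:**
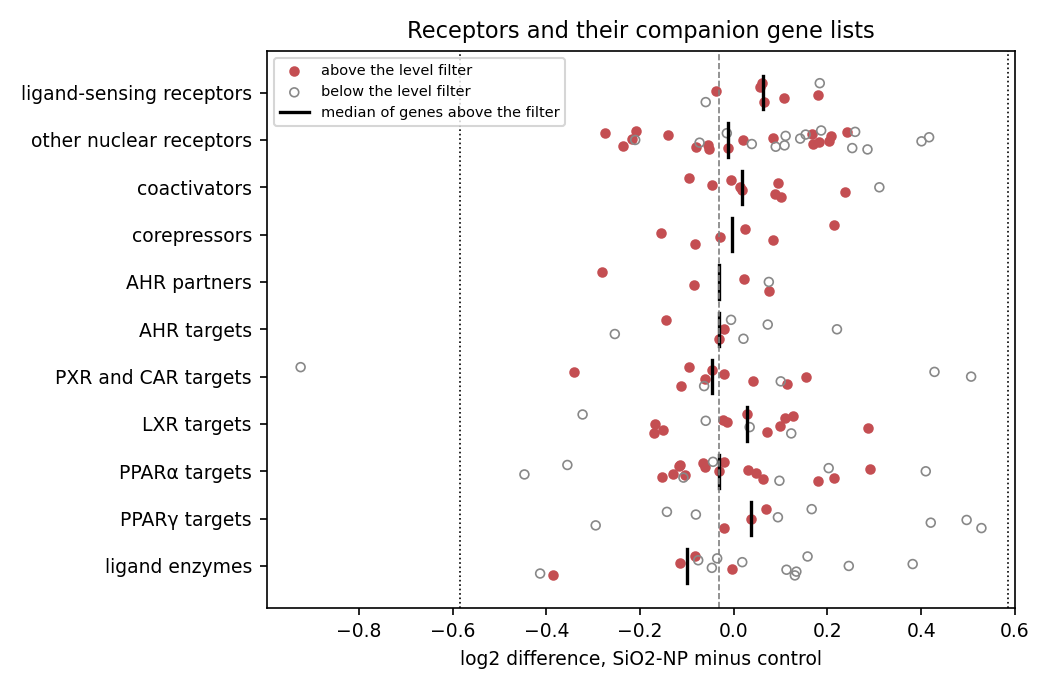
Log2 difference, SiO2-NP minus control, of the receptors and of the genes of 10 companion lists; filled points lie above the level filter, open points under it, and the black bar is the median of the filled points. The dotted lines stand at 1.5-fold and the dashed line at the median of all expressed genes (-0.03); GSTA2 is the 1 open point past a dotted line, at the far left.

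Hepatocyte markers were bright on both arrays. All 14 measured hepatocyte and hepatoma markers were above the filter, ALB among them with 13.41 on the SiO2-NP array and 13.50 on the control array, and their summed linear intensity was 76855 on the SiO2-NP array and 76897 on the control array. Single markers differed more than the sum, with KRT18 1.26-fold higher and FGG 1.24-fold lower, both named after their values were seen. Above the filter were 2 of 11 leukocyte and Kupffer cell markers (CD68 and LYZ), 3 of 10 fibroblast and stellate markers (COL1A1, ACTA2 and RELN) and 0 of 9 endothelial markers. Their summed linear intensities were 11089, 5957 and 609 on the SiO2-NP array, against 10840, 5841 and 583 on the control array. A single gene carried most of the leukocyte and stellate sums: LYZ made up 88.8% of the leukocyte sum on the SiO2-NP array and 88.6% on the control array, and RELN 76.5% and 76.6% of the stellate sum.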

How the data were processed

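Gene expression was measured on 2 Affymetrix arrays. The deposited values are log2 intensities, 1 per probe (transcript cluster) and array, a scale read from their range of 2.08 to 14.4. Per the submitters' processing notes, the tools were RMA and MAS5. The sources used here do not give their versions or say which of them produced the table. RMA equalises array distributions and would hide a shift common to most transcripts. The median over probes was 6.69 on the SiO2-NP array and 6.65 on the control array, so the deposited distributions are not identical. Arrays have no read depth, and their number limits the precision.

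Of 33297 probes, 19460 carried 1 gene symbol in the platform annotation, and these were averaged per gene. Genes at or above the median gene mean were called expressed. The difference is SiO2-NP minus control on the log2 scale, counted at 1.5-fold (0.58) and 1.2-fold (0.26). Alternatives covered scaling, probe rules, filters and thresholds. Named genes were the receptors, up to 4 expressed members of each companion list with the largest absolute difference, and genes fixed by name. Outside this rule were CYP1A2, CYP1B1, the cell type markers and the genes marked as named after their values were seen. Members, lists and this rule were chosen with earlier results of these data known. Promoter windows came from RefSeq (GRCh38.p14), and all 8 measured receptors matched. Averaging, fold counts and rescaling were tested on simulated data with reduced scatter and planted changes far larger than any receptor difference. That test says nothing about differences as small as those of the receptors. It did not cover the ranges by level, the companion lists or the promoter search. Computation used pandas 2.3.3 and NumPy 2.4.6 under Python 3.11.15, with figures from matplotlib 3.10.9.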

Additional observations from a re-analysis of the deposited data

How the results depend on the processing

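No receptor passed 1.5-fold under any alternative run, and 0 passed 1.2-fold. In the main setting 0.391% and 10.5% of expressed genes did, so these counts are not a result about the receptors. The median of the 8 receptors ran from 0.05 (centring on the array median) to 0.11 (quantile normalization), and PPARG from 0.17 to 0.23. The largest move of a single receptor was 0.09, in NR1I3 under the running median. No replicate spread exists, so a change of 0.1 on the log2 scale was used to mark a moved difference or median. This exceeds every list median of the main setting and says nothing about their signs. The median of the ligand enzymes was -0.11 after centring on the array median. Beyond it, or beyond 1.5 times for a count, moved the median of the other nuclear receptors, 0.099 without the filter on dim genes against -0.01, and the counts of expressed genes past 1.5-fold, 36 in all (13 higher and 23 lower). These were 129 (61 higher and 68 lower) without the filter and 17 (8 lower) with a filter at the 75th percentile. At 1.2-fold they were 968 (275 higher and 693 lower). The split of 13 higher to 23 lower became 21 to 19 after centring on a running median and 22 to 18 after quantile normalization. Medians of companion lists changed sign in 14 of 79 recomputations, so the sign of a list median near 0 is not stable. The cause of these moves was not tested, except that another filter or threshold changes by construction which genes are counted. No paired analysis was possible because the design has 1 array per group, which also leaves no replicate to leave out.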

Other observations

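Leaving out NR1H3, 56 companion genes lay under the level filter. Of these, 17 (30.4%) were at least 1.2-fold apart between the arrays, beside 18.9% of all genes under the filter. The 17 were 11 higher and 6 lower after SiO2-NP. Genes under the filter were above the control in 64.3% of cases, so this split is not a result about the 17. The 17 are named here after their values were seen, and at these intensities a low transcript cannot be told from background. GSTA2 is the nearest to the filter, with a mean 0.05 under it and a control value of 7.67 above it. Among the 11 higher, 3 lay outside the central 95% of genes at their own level. These were FABP4, a fatty acid carrier of adipocytes, with a log2 intensity of 4.12 on the SiO2-NP array and 3.59 on the control array, ADIPOQ, which encodes adiponectin, with 5.83 on the SiO2-NP array and 5.33 on the control array, and CYP2B6 (0.51). The other higher genes lay inside that range: CYP2C8 (0.43), LPL (0.42), NR2E3 (0.42), CYP4A22 (0.41), ESRRB (0.40), ALDH1A2 (0.38), PPARGC1B (0.31) and RXRG (0.29). Among those lower, GSTA2 (-0.92), the fatty acid hydroxylase CYP4A11 (-0.45), CH25H (-0.41) and the pantetheinase VNN1 (-0.36) lay outside it, and TTC39B (-0.32) and the fatty acid receptor CD36 (-0.29) inside it.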
